A study of Mus musculus with 6 samples.

Results

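The amino acid breakdown enzymes described here are 44 genes of liver amino acid catabolism, taken by symbol from a fixed list of 44 names, all of which were among the 23291 genes in the deposited tables. Of the 44, 43 reached 1 FPKM in 3 or more of the 5 distinct libraries and were tested, and the list falls into 8 pathway groups. RNA sequencing was done on total RNA of snap frozen liver from C57BL/6 mice, an inbred laboratory strain. The diet group had been given high fat food (titled Western diet) for 3 months, and the dabigatran group the same food and time with 10 mg/g of dabigatran etexilate, an oral prodrug of a direct thrombin inhibitor. The labels give no allele, transgene, age or sex for either group, and the high fat diet is common to both. Dabigatran replicates 0 and 1 had the same value for each of the 23291 genes and count as 1 library, so 3 diet libraries (replicates 0, 1 and 2) stand against 2 dabigatran libraries (replicates 1 and 2). The comparison asks which of these genes differ when thrombin is inhibited on this diet.

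The liver is the main site where amino acids in excess of need are broken down. Nitrogen is removed, in some routes at the first step by transaminases or dehydratases, and passes to urea. The carbon skeletons enter gluconeogenesis, ketogenesis or the citric acid cycle. The first enzyme of several of these routes, such as tyrosine aminotransferase and tryptophan dioxygenase, is known for control by glucocorticoids, glucagon and substrate supply.

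Values are FPKM (fragments counted per length of gene and per sequenced total), which allow levels of different genes to be compared per length. Depth relative to diet replicate 0 was 0.761 and 0.967 for diet replicates 1 and 2 and 0.857 and 0.772 for dabigatran replicates 1 and 2. A library held 10006 to 10399 genes at 1 FPKM or more. Diet replicate 1 had the highest diet value for 58.4% of the 226 tested genes with a fitted log2 difference of at least 1, and for 7 of the 8 members in that class. Dabigatran replicate 2 had the highest of the 5 values for 23 of the 43 members and for 29.0% of all tested genes. Of 9 tested hepatocyte markers (Alb and Ttr among them) none passed, 4 lay above all diet values and 2 below. Of all tested genes, 17.2% lay above and 17.2% below, shares to set beside each marker count here. The hepatocyte markers' summed level was 61276 FPKM in dabigatran replicate 2 and 43862 to 49240.5 in the other 4 libraries. Of 7 endothelial markers none passed, 5 lay above and 1 below, with sums of 107.7 to 110.6 FPKM in diet and 109.5 and 108 in dabigatran replicates 1 and 2. These sums join opposite differences, in genes named after their values were seen. Clec4g, the 1 below, had 50.4, 53.6 and 53.3 FPKM in diet and 37.2 and 25.4 with dabigatran. Lyve1, of the 5 above, had 10.4, 9.07 and 7.31 FPKM and 18.6 and 23.2 (limma adjusted p = 0.0689). The 8 macrophage markers overlapped between groups (243 to 323 FPKM summed in diet, 349 and 206 with dabigatran), with none above or below all diet values. Of 7 tested stellate and fibroblast markers none passed, 1 lay above (Reln) and 2 below (Lrat and Col3a1, all 3 named after their values were seen). Col3a1, a fibrillar collagen gene, had 6.26, 3.48 and 6.32 FPKM in diet and 1.29 and 0.953 with dabigatran (log2 difference -1.82, adjusted p = 0.0674), while the list's sum, most of it Dcn, was 96.9 to 142 FPKM in diet and 96.1 and 100.7 with dabigatran. Cholangiocyte and lymphocyte markers summed to under 5 FPKM in every library, with Cd8a at 0 in all. Of the adipocyte markers, Plin1 and Lep were at 0 in all libraries, and Cfd, the complement factor D gene, fell (150, 28.3 and 47.5 FPKM in diet, both dabigatran values listed at 0, adjusted p = 0.0110). The part of these differences in the results below was not tested, and in bulk liver fewer cells of a type and less RNA per cell cannot be told apart.

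Sds and Sdsl, the serine dehydratase genes, rose with dabigatran and no member fell (2 of 43, limma adjusted p under 0.05), where 0.127% of the 10247 tested genes rose and 0.303% fell. Both dabigatran values lay above all 3 diet values in 18 members, against 17.2% of all tested genes, and below all of them in 6 members, against 17.2%. A fitted log2 difference of at least 1 was found in 8 members, where 2.21% of all tested genes reached it, and none was at -1 or lower, where 3.91% were. At an unadjusted p under 0.05, 14 members were higher and 3 lower, where 6.87% and 9.13% of all tested genes were. The median log2 difference over the 43 members was 0.21, beside 0.02 over all tested genes. Members were chosen with earlier results of these data known, so these counts and medians only describe the list. Against the diet mean, the members' median was 0.10 in dabigatran replicate 1 and 0.29 in replicate 2, and within 0.03 of it in the diet libraries. The median was 0.10 without dabigatran replicate 2.

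**Figure D1:**
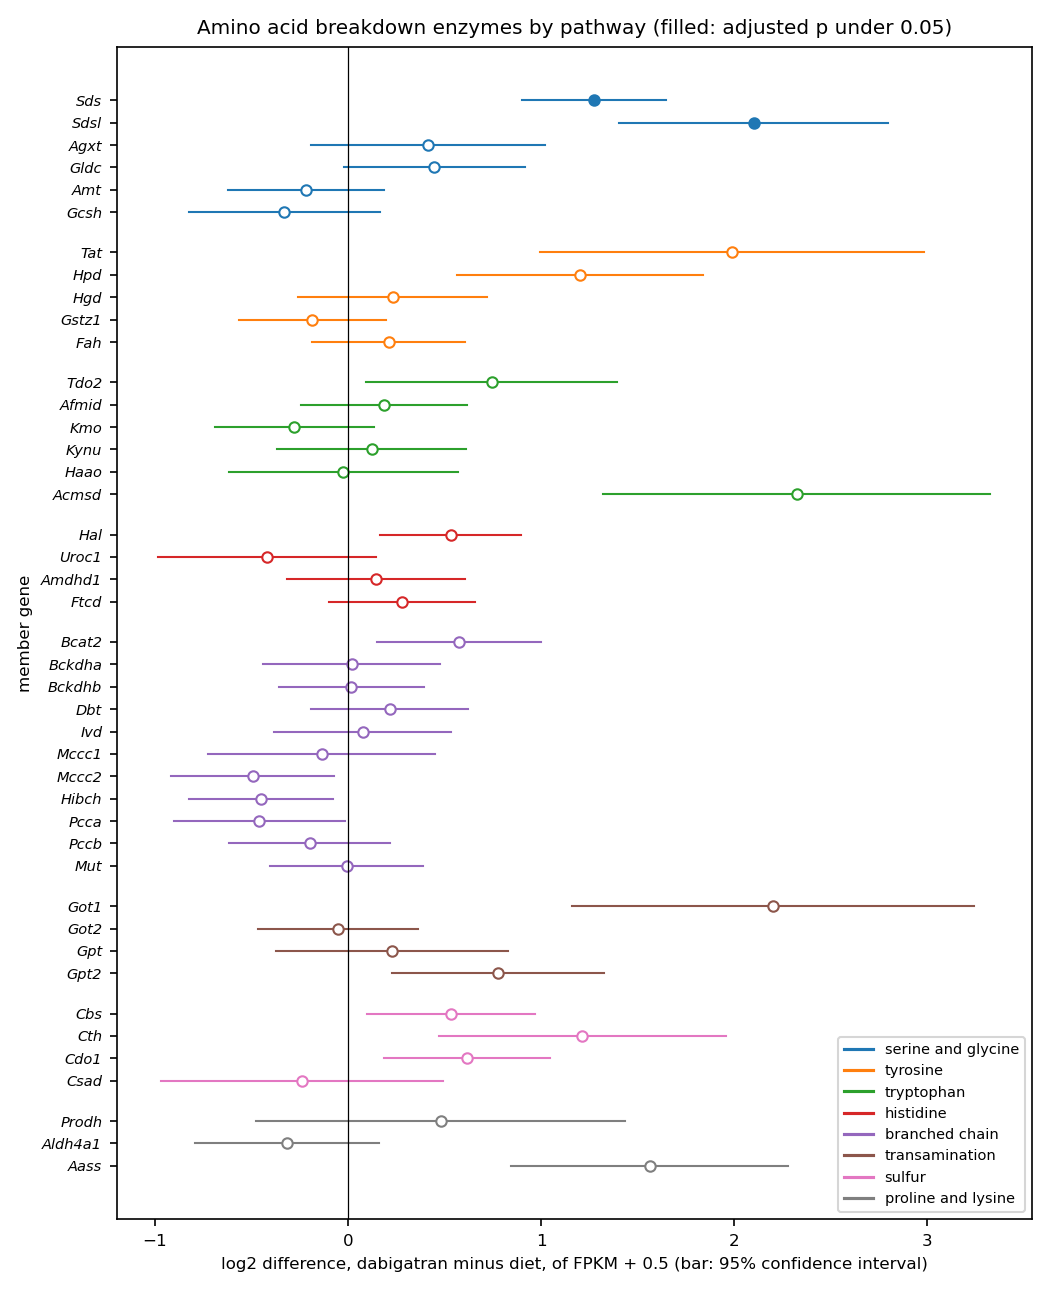
Fitted log2 difference, dabigatran minus diet, of FPKM + 0.5 (x axis) for the 43 tested members (y axis), coloured by pathway. Points are estimates, bars are 95% confidence intervals, and filled points passed the test. Only Sds and Sdsl are filled, and 8 members lie at 1 or above.

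Serine and glycine enzymes held both members that passed. Sds encodes serine dehydratase, which deaminates serine and threonine for gluconeogenesis, and lies on chromosome 5 (120476526 to 120483932, plus strand; GRCm38, GENCODE M21). Diet replicates 0, 1 and 2 held 58.3, 63.5 and 66.2 FPKM of Sds, dabigatran replicates 1 and 2 held 148 and 157. Each group was tight and the groups were far apart: Sds rose 2.42-fold, a log2 difference of 1.28 ± 0.16 (SE, adjusted p = 0.0404), from 62.7 ± 4.06 FPKM (SD, n = 3) to 152 ± 6.21 (SD, n = 2). Sdsl, whose product resembles serine dehydratase, lies 3715 bases away on the minus strand (120458186 to 120472810), so that the pair is transcribed in opposite directions from neighbouring starts. Sdsl had 2.76, 5.70 and 3.27 FPKM in diet and 16.1 and 19.4 with dabigatran. Sdsl rose 4.29-fold, by 2.10 ± 0.30 on the log2 scale (SE, adjusted p = 0.0404). These values rest on few reads: the smallest whole numbers of fragments that fit them are 7, 11 and 8 in the diet libraries and 35 and 38 with dabigatran, beside 141, 117 and 155 and 307 and 293 for Sds.

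Sds has 29.6% of its exonic bases under exons of Plbd2 and Gm15690 on the opposite strand, and the use of strand is not given in the sources used here. Plbd2 had 13.4, 13.6 and 13.2 FPKM in diet and 16.8 and 15.8 with dabigatran (limma adjusted p = 0.493), a smaller difference in FPKM than that of Sds. Gm15690 is not among the listed symbols, and the part of reads from the overlap in the Sds values was not tested. Sdsl shares none of its 1528 windows of 50 bases with a transcript of another gene, Sds included. Neither call held in every set of 4 libraries. With diet replicate 0, diet replicate 2 or dabigatran replicate 2 left out, the adjusted p was 0.204, 0.202 and 0.194 for Sds and 0.204, 0.224 and 0.231 for Sdsl, with log2 differences of 1.22 to 1.32 and 1.91 to 2.02. With the replicate number as a block, Sds had 1.22 (adjusted p = 0.110) and Sdsl 1.91 (adjusted p = 0.0774).

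The other enzymes of this group did not pass. Gldc, the decarboxylase of the glycine cleavage system, had 42.4, 30.4 and 37.8 FPKM in diet and 45.4 and 55.1 with dabigatran, a log2 difference of 0.45 with a 95% interval of -0.02 to 0.92. Its partner genes leaned the other way: Amt, the aminomethyltransferase, had a log2 difference of -0.22 with both dabigatran values below the diet values, and Gcsh, the lipoyl carrier protein, had -0.33 with overlapping groups. Agxt, which transaminates glyoxylate to glycine in peroxisomes, spanned 85.7 to 151 FPKM in diet and 137 to 141 with dabigatran. The highest value of Agxt was that of diet replicate 1. Dao, D-amino acid oxidase, was listed at 0 in all 5 libraries and was not tested.

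**Figure D2:**
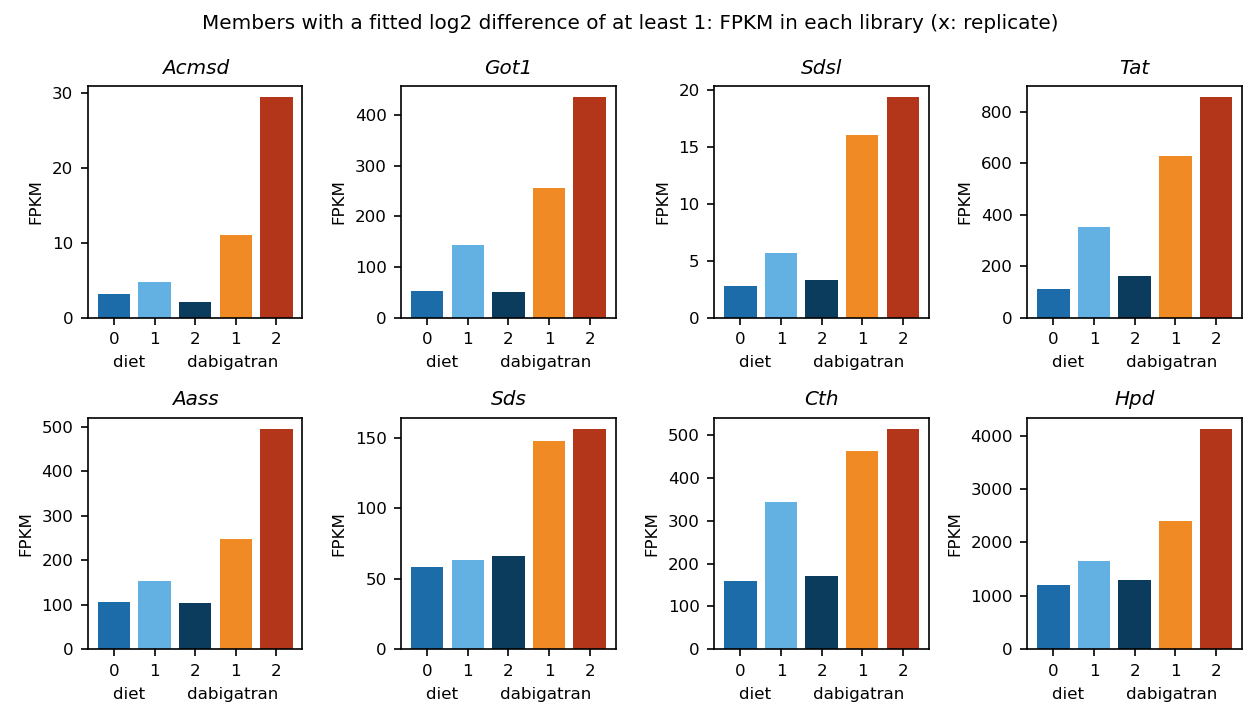
FPKM (y axis, a separate scale for each gene) in each of the 5 libraries (x axis, replicate number within diet and dabigatran) for the 8 members with a fitted log2 difference of at least 1. Both dabigatran bars exceed all diet bars in every panel, and diet replicate 1 is the highest diet bar in all panels but that of Sds.

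No tyrosine gene passed, and the fitted differences were larger for Tat and Hpd, the genes of the first 2 steps, than for the others, a contrast between genes that was not tested. Tat, tyrosine aminotransferase (chromosome 8, 109990437 to 109999803), had 109.7, 352 and 163 FPKM in diet replicates 0, 1 and 2 and 628 and 857 in dabigatran replicates 1 and 2. The groups did not overlap, but diet replicate 1 lay well above the other diet libraries, and the log2 difference of 1.99 ± 0.43 (SE) had an adjusted p of 0.0869. Hpd, the hydroxyphenylpyruvate dioxygenase of the next step (chromosome 5, 123171807 to 123182727) and the member with the highest diet mean per length, had 1198, 1659 and 1297 FPKM and 2408 and 4135 (log2 difference 1.20 ± 0.28, adjusted p = 0.101). Dabigatran replicate 2 was far above replicate 1 for Hpd. Fah, the fumarylacetoacetase of the last step, had 291, 255 and 311 FPKM and 317 and 343, with an interval of -0.19 to 0.61 for the log2 difference. Hgd and Gstz1, homogentisate dioxygenase and maleylacetoacetate isomerase, had log2 differences of 0.23 and -0.18 with intervals of -0.26 to 0.72 and -0.57 to 0.20. The groups overlapped for Hgd, and both dabigatran values lay below all diet values for Gstz1.

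In the tryptophan (kynurenine) pathway no gene passed, and Acmsd and Tdo2 had the lowest p. Acmsd, the decarboxylase that diverts the pathway from NAD synthesis towards oxidation (chromosome 1, 127729413 to 127767978), had the largest fitted difference of all members. It had 3.20, 4.70 and 2.14 FPKM in diet and 11.0 and 29.5 with dabigatran, a log2 difference of 2.32 ± 0.44 (SE, adjusted p = 0.0689). The groups did not overlap and the 2 dabigatran libraries were 1.39 apart on the log2 scale. Acmsd had the lowest diet mean per length of the tested members, on 17, 19 and 11 fragments in diet and 50 and 121 with dabigatran. Tdo2, tryptophan dioxygenase, which opens the pathway, had 763, 1088 and 884 FPKM and 1133 and 2018 (log2 difference 0.75 ± 0.28, adjusted p = 0.257). Dabigatran replicate 1 barely exceeded diet replicate 1 for Tdo2. Kmo, the kynurenine hydroxylase gene, lay slightly lower with dabigatran, at 121 and 134 FPKM against 173, 158 and 135. The genes Afmid, Kynu and Haao, which encode the formamidase, kynureninase and hydroxyanthranilate dioxygenase, had log2 differences of 0.19, 0.12 and -0.02 with overlapping groups. Of the windows of Afmid, 41.3% are shared with other transcripts, mostly the read-through gene Gm20708, so its value is uncertain.

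No transaminase passed, though Got1 and Gpt2, 2 of 4, lay higher with dabigatran without overlap, as 17.2% of all tested genes did. Got1, the cytosolic aspartate aminotransferase (chromosome 19, 43499752 to 43524605), had 51.9, 143 and 50.8 FPKM in diet and 257 and 436 with dabigatran. Its log2 difference was 2.20 ± 0.45 (SE, adjusted p = 0.0784), and diet replicate 1 lay between the other diet libraries and the dabigatran libraries. Got2, the mitochondrial form, catalyses the same reaction and spanned 146 to 189 FPKM in diet and 163 to 169 with dabigatran. The 95% interval of the log2 difference was 1.16 to 3.24 for Got1 and -0.46 to 0.36 for Got2, and the difference between the genes was not tested. Gpt2, the mitochondrial alanine aminotransferase, had 141, 114 and 122 FPKM and 166 and 277 (log2 difference 0.78 ± 0.24, adjusted p = 0.179). Gpt, its cytosolic counterpart, had 97.5, 62.9 and 107 FPKM and 88.4 and 118, and the groups overlapped. Of the windows of Got2, 25.6% are shared with other transcripts, mostly Gm10874.

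In 3 of 4 sulfur amino acid genes both dabigatran values lay above all diet values (17.2% of all tested genes did), and none passed. Cth, the cystathionine lyase that releases cysteine (chromosome 3, 157894248 to 157925077), had 159.6, 343 and 169.9 FPKM in diet and 463 and 515 with dabigatran (log2 difference 1.21 ± 0.32, adjusted p = 0.134). As for Tat and Got1, diet replicate 1 lay well above the other diet libraries. Cbs, the synthase of the step before, had 77.6, 105 and 99.4 FPKM and 131 and 140.0 (0.53 ± 0.19, adjusted p = 0.233). Cdo1, cysteine dioxygenase, which commits cysteine to taurine and sulfate, had 649, 800.3 and 679 FPKM and 1025 and 1143 (0.62 ± 0.19, adjusted p = 0.175). Csad, the decarboxylase that follows on the way to taurine, had a log2 difference of -0.24 with an interval of -0.97 to 0.49, and its diet values spanned 25.9 to 57.1 FPKM.

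Lysine and proline genes were few and differed among themselves. Aass, the bifunctional enzyme that starts lysine breakdown in mitochondria (chromosome 6, 23072173 to 23132986), had 106, 153 and 103 FPKM in diet and 248 and 496 with dabigatran. The groups did not overlap and dabigatran replicate 2 was 1.00 above replicate 1 on the log2 scale (log2 difference 1.56 ± 0.31, adjusted p = 0.0751). Prodh, proline dehydrogenase, had 51.7, 22.0 and 58.0 FPKM and 43.7 and 73.4, with overlapping groups and an interval of -0.47 to 1.44 for the log2 difference. Aldh4a1, which oxidises the product of Prodh to glutamate, had 94.3, 64.9 and 91.8 FPKM and 65.9 and 66.5. Diet replicate 1 lay at the dabigatran level for Aldh4a1, and 30.0% of its windows are shared, mostly with Gm21969.

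For 3 of the members with a fitted log2 difference of at least 1, Got1, Aass and Tat, the 250 bases before the RefSeq start site (GRCm38.p6) are shown as examples, 5′ to 3′ on the strand of the gene. RefSeq promoters were matched for 36 of the 44 members, not for Sds or Sdsl. Capitals mark TGACG on either strand, the half-site bound by CREB. TGTTCT, a glucocorticoid receptor half-site, and TTGCNNCAA, a pattern used here for C/EBP, were also searched on both strands and would be in capitals too. TTGCNNCAA is not its own reverse complement and can miss C/EBP sites.
Aass (chr6:23132987-23133236, minus strand): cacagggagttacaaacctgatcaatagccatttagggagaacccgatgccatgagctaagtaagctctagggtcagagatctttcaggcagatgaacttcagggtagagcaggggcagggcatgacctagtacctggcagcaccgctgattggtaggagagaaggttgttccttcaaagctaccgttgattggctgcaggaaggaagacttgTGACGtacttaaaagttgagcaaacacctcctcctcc
Got1 (chr19:43524606-43524855, minus strand): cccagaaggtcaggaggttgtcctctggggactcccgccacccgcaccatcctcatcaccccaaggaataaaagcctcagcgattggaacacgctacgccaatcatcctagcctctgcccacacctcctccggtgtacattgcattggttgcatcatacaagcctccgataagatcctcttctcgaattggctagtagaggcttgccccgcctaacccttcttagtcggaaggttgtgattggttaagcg
Tat (chr8:109990186-109990435, plus strand): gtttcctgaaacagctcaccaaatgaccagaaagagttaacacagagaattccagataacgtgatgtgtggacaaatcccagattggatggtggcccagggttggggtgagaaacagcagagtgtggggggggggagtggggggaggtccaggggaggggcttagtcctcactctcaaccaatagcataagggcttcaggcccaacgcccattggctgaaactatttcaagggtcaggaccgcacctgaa
TGACG starts 37 bases before the start site in Aass, and none of the 3 motifs was found in the windows of Got1 and Tat. Sequence outside these 250 bases was not searched, so sites further away are not covered. Over all 32851 promoter windows of this length, TGACG was found in 17.8%, TGTTCT in 16.1% and TTGCNNCAA in 1.74%. Of the 43 windows of the 36 members, 6, 5 and 1 held them.

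Histidine genes showed small differences. Hal, histidine ammonia-lyase, the first step, had 98.4, 98.4 and 91.5 FPKM in diet and 142 and 136 with dabigatran, tight in both groups (log2 difference 0.53 ± 0.16, adjusted p = 0.168). Uroc1, the urocanate hydratase of the next step, had 123, 74.7 and 107 FPKM and 84.6 and 65.4, with a log2 difference of -0.42 and overlapping groups. Ftcd, which passes the formimino group to folate, had 84.4, 78.5 and 93.0 FPKM and 103 and 104. Amdhd1, the imidazolonepropionase gene, which lies 4033 bases from Hal on the opposite strand, had a log2 difference of 0.15 with an interval of -0.31 to 0.61.

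Branched chain genes had a median log2 difference of -0.01 over 11 members, none of which passed. At an unadjusted p under 0.05, 1 was higher and 3 were lower, where 6.87% and 9.13% of all tested genes were. Mccc2, the beta subunit of the leucine pathway's carboxylase, had 23.5, 20.6 and 25.1 FPKM in diet and 16.1 and 16.3 with dabigatran (log2 difference -0.49, adjusted p = 0.249). Hibch, the valine pathway's hydroxyisobutyryl-CoA hydrolase, had 60.2, 62.0 and 58.9 FPKM and 41.9 and 46.5 (-0.45, adjusted p = 0.239). In both genes the dabigatran values lay below all diet values. The same held for Pcca, the alpha subunit of propionyl-CoA carboxylase, with a log2 difference of -0.46 (adjusted p = 0.298), while its partner Pccb had -0.20 with overlapping groups. Bcat2, the transaminase of the first step, had 11.2, 10.8 and 10.6 FPKM and 15.5 and 17.4 (0.58, adjusted p = 0.197). Bcat2 is uncertain, since 15.9% of its exonic bases lie under exons of 0610005C13Rik on the opposite strand, which had 64.4, 98.4 and 80.6 FPKM in diet and 117 and 102 with dabigatran.

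The branched chain ketoacid dehydrogenase itself, the committed step, showed small fitted differences. Its subunit genes Bckdha, Bckdhb and Dbt had log2 differences of 0.02, 0.02 and 0.22. The intervals were -0.44 to 0.48, -0.36 to 0.39 and -0.19 to 0.62. Both dabigatran values lay above all diet values for Dbt, and the groups overlapped for Bckdha and Bckdhb. Exons of B3gnt8 on the opposite strand cover 61.7% of the exonic bases of Bckdha, so its value is uncertain. B3gnt8 was listed at 0.623 FPKM at most, and how reads in the overlap were assigned was not tested. Ivd, Mccc1 and Mut, which encode isovaleryl-CoA dehydrogenase, the alpha subunit of the leucine carboxylase and methylmalonyl-CoA mutase, had 0.08, -0.14 and -0.01, all with overlapping groups. For Mut the interval was -0.40 to 0.39.

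**Figure D3:**
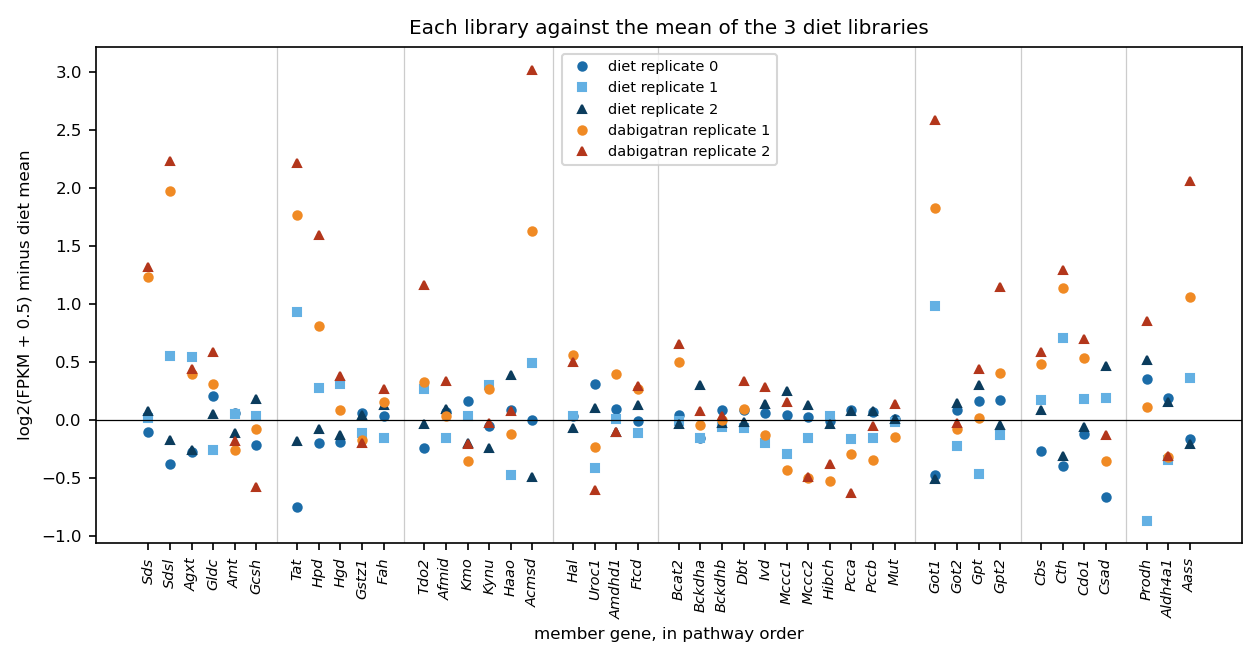
Each library's log2(FPKM + 0.5) minus the mean of the 3 diet libraries (y axis) for the 43 tested members in pathway order (x axis, thin lines separate the groups). Diet replicate 1 stands apart from the other diet libraries for Tat and Got1, by 1.39 and 1.47, and dabigatran replicate 2 reaches 3.02 for Acmsd.

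Leaving out single libraries moved the calls from 0 to 7 members. Without diet replicate 1, Sds, Sdsl, Tat, Got1, Cth, Acmsd and Aass rose, where 0.927% of all tested genes did. Got1 then had a log2 difference of 2.69 (adjusted p = 0.00618), Tat 2.45 (adjusted p = 0.00733) and Cth 1.57 (adjusted p = 0.00735). Without dabigatran replicate 1, Sds, Sdsl, Aass, Acmsd, Hpd and Gpt2 rose, where 0.917% of all tested genes did, with 3.02 for Acmsd (adjusted p = 0.0195) and 1.59 for Hpd (adjusted p = 0.0349). When diet replicate 0, diet replicate 2 or dabigatran replicate 2 was left out, no member passed in limma. An unadjusted p under 0.05 was then found for 11, 13 and 9 higher members, where 442, 496 and 340 of all tested genes were higher with such a p, and for 1, 0 and 1 lower members, where 620, 611 and 670 genes were lower. Sds was steady in both groups (coefficient of variation 6.47% in diet), whereas that of Got1, the largest of the members, was 64.8%, and the median over members was 13.5%.

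Other enzymes of amino acid breakdown, listed apart from the 44, lay the other way. Of 47 tested, none passed, 17 lay below all diet values in both dabigatran libraries and 3 above (where 17.2% of all tested genes lay either way), and the median log2 difference was -0.18. Hibadh, the dehydrogenase that follows Hibch in valine breakdown, had 171, 152 and 187 FPKM in diet and 93.2 and 117 with dabigatran (adjusted p = 0.132). Hnmt, which methylates histamine, had 30.6, 10.2 and 27.4 FPKM and 7.41 and 5.72 (adjusted p = 0.145). Sqrdl, which oxidises hydrogen sulfide, had 70.8, 54.0 and 66.7 FPKM and 40.5 and 39.1 (adjusted p = 0.145). Diet replicate 1 was the lowest diet library for each of these.

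Of 17 tested amino acid transporters none passed, 6 lay above all diet values and none below (where 17.2% of all tested genes lay each way), and the median was 0.35. Slc6a12, a betaine and GABA transporter, had 16.6, 14.7 and 15.6 FPKM in diet and 28.3 and 27.8 with dabigatran (log2 difference 0.82, adjusted p = 0.0833). The mitochondrial glutamate carrier gene Slc25a22 had 60.1, 68.3 and 58.8 FPKM and 89.2 and 92.6, and the aromatic amino acid transporter gene Slc16a10 14.2, 18.1 and 10.8 and 20.1 and 29.6. For the first 2 of these, both groups were tight. Of 14 genes listed as regulators of amino acid breakdown none passed, 7 lay above all diet values and 1 below (Gcgr, the glucagon receptor gene, named after its values were seen), beside the same 17.2% each way, with a median of 0.45. The 14, the 7 above and the median include Fkbp5 and Tsc22d3, which are genes that respond to glucocorticoids rather than regulators of breakdown. They were the 2 of the list with a log2 difference of at least 1 (2.65 and 1.33). The glucocorticoid-induced genes Fkbp5 and Tsc22d3 had 3.71, 9.27 and 5.57 FPKM and 8.19, 21.3 and 13.7 FPKM in diet, and 15.2 and 99.1 and 37.3 and 31.5 with dabigatran (adjusted p = 0.131 and 0.134). Their highest diet value was that of diet replicate 1, as for Tat and Got1. The same held for 58.4% of all tested genes with a log2 difference of at least 1. A link between these genes was not tested. Atf4, a transcription factor induced by amino acid shortage, had 22.6, 33.8 and 31.2 FPKM and 49.8 and 45.1 (adjusted p = 0.175).

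**Figure D4:**
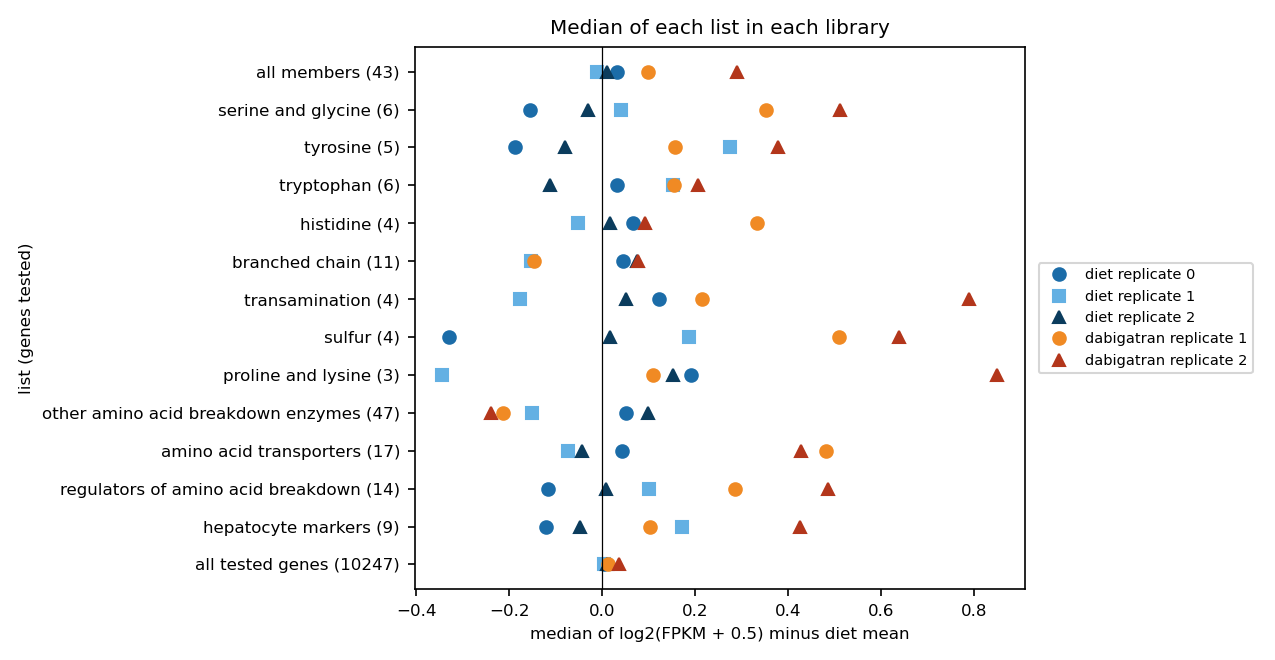
Median of log2(FPKM + 0.5) minus the diet mean (x axis) over the tested genes of each list (y axis, number of genes in brackets) in each of the 5 libraries. The members' medians are 0.10 and 0.29 in the dabigatran libraries, the sulfur genes' 0.51 and 0.64, and those of the other breakdown enzymes -0.21 and -0.24.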

How the data were processed

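The deposited tables give 1 FPKM value per gene symbol, as the authors made them. Per the submitters' processing notes, which state no role or order, the tools were TopHat2 2.0.4, TopHat, CASAVA, R 2.15.1 and Cuffdiff and the builds mm10 and GRCm38. Annotation, strand, multi-mapped reads and scaling: not given in the sources used here. Log2(FPKM + 0.5) of 10247 genes was fitted with limma 3.58.1 in R 4.3.3 (variance trend, group as the only term, two-sided) with Benjamini-Hochberg adjustment over all of them. Fold changes on this scale understate those of low genes. The design expected 3 against 3 libraries. The design text names 3 mice per group but no label ties a library to a mouse, so p-values measure the spread between these libraries.

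Fragment numbers were recovered as whole multiples of a common step (relative tolerance 2e-05) for 31 of the 43 tested members and 78.9% of all tested genes, using the most common ratio between libraries among genes under 0.3 FPKM as relative depth. They cover counting error only and can be too small by a whole factor. Positions, exon overlaps and windows of 50 bases are from GENCODE M21 (GRCm38). Values in every library are given for members that passed, for up to 3 per pathway group in order of p, and for untested members. Members and lists were chosen with earlier results of these data known. Alternatives were other pseudocounts, filters and scalings, no variance trend, a replicate block and leaving out each library. The fit was tested on simulated data. Some items among the genes and promoter windows are not reported here.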

Additional observations from a re-analysis of the deposited data

How the results depend on the processing

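The counts of calls depended on the settings and on single libraries, while most directions did not. With 13 genes higher, 31 lower and 2 members higher by limma's adjusted p as reported, a pseudocount of 0.1 gave 6, 17 and 1, the replicate number as a block 5, 8 and 0, no filter on low values 0, 0 and 0, and no variance trend 0, 0 and 0. At an unadjusted p under 0.05, the last 2 still gave 816 and 692 genes higher, 1117 and 870 lower and 14 members higher each. At least 5 FPKM in 3 libraries gave 8 genes higher, and quantile normalization 16 lower. Leaving out 1 library gave 0 to 95 genes higher, 0 to 199 lower, 0 to 7 members higher and a members' median of 0.10 to 0.29. Without diet replicate 1, the dabigatran values of 21 members lay above and of 11 below all diet values (26.4% and 25.3% of all tested genes did), against 18 and 6 as reported (17.2% each), a count added after seeing the data. Of the members named with values in every library, Gpt alone changed sign (-0.0039 without diet replicate 1, up to 0.44 without dabigatran replicate 1). The causes were not tested. No sign of pairing by replicate number was seen: deviations of same-numbered libraries correlated at -0.04 for replicate 1 and -0.03 for replicate 2. With 2 dabigatran libraries the deviations of one mirror those of the other, so these values cannot exclude pairing. The block sets diet replicate 0 aside. The low fragment numbers of Sdsl and Acmsd limit their precision.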

Other observations

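Genes that mark the ends of the liver lobule were measured beside the amino acid enzymes. Of 7 periportal markers none passed and 3 (Cps1, Arg1 and Gls2) lay above all diet values in both dabigatran libraries, where 17.2% of all tested genes did. Cyp2f2, Hsd17b13 and Aldh1b1 had log2 differences of -0.20, -0.36 and -0.13 with overlapping groups. Cps1, the first enzyme of the urea cycle, had 248, 469 and 282 FPKM in diet and 826 and 1793 with dabigatran (limma adjusted p = 0.0738), and Arg1, which releases urea, had 411, 479 and 427 and 938 and 1574 (adjusted p = 0.0591). Pck1, the gluconeogenic enzyme, had 345, 1007 and 309 FPKM and 1145 and 735, with diet replicate 1 between the dabigatran libraries. Of 10 pericentral markers none passed, none lay above and 2 lay below all diet values (17.2% of all tested genes lay each way). The other 8 overlapped, and the list's median log2 difference was -0.19. Of these 8, Cyp2e1, Cyp1a2, Slc1a2 and Axin2 had log2 differences of 0.14, 0.08, 0.24 and 0.16. Glul, Lgr5, Slc22a3 and Rhbg had -0.15, -0.27, -0.26 and -0.22. The 2 below all diet values were Rgn, with 639, 434 and 691 FPKM and 241 and 199.8 (adjusted p = 0.0639), and Oat, ornithine aminotransferase, with 802, 765 and 1003 and 494 and 622 (adjusted p = 0.211).

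Amino acid synthesis enzymes were mostly low. Of 10 listed, 5 were tested and none passed. The 2 named here were chosen after their values were seen. Asns, asparagine synthetase, missed the filter on low values, with 0.459, 0.905 and 0.237 FPKM in diet and 1.87 and 5.05 with dabigatran. Phgdh, the first enzyme of serine synthesis, was listed at 0 in all 5 libraries.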
